A study of Mus musculus with 16 samples.

Results

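The data compared whole retinas of BALBc and C57 mice that were raised in room air and taken at 12 days of age. BALBc normoxia and C57 normoxia each had 4 libraries, so the comparison used 8 of the 16 libraries of the study, chosen by their labels and read across all genes. The other 8 libraries came from the same strains after 75% oxygen from day 7 and appear here for the spread between libraries and as a second look at the strain difference. The labels give no substrain, sex or animal identity. The p-values therefore rest on the spread among libraries, which may be technical. No allele, transgene or agent other than oxygen is named for any group.

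The retina at this age holds rod and cone photoreceptors, interneurons, ganglion cells, Müller glia and a vascular network that is still maturing. BALBc mice are albino through a coding mutation in Tyr, the melanin-forming enzyme, and C57 mice are pigmented. Inbred strains also differ in retrocopies, which are processed copies of a transcript put back into the genome elsewhere, and GRCm38, the assembly the reads were aligned to, was built from C57BL/6J mice. A read that fits a gene and its near-identical copy can be counted at either place or left uncounted. The summed reads of a gene and its copies are therefore given below for several such genes. How such reads were counted was not examined, so a sum need not hold all reads of a gene and its copies.

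The 4 pairs of sequences that follow show how little separates some of the genes with a strain difference from their copies. Each is a 60-base coding window of the gene beside the same window of a processed pseudogene, read 5′ to 3′ in GRCm38, with the differing bases in capitals.
Rpl26, chr11:68903260-68903319, plus strand, exon 3: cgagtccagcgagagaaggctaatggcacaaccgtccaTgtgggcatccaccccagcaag
Gm15772, chr5:3236680-3236739, plus strand: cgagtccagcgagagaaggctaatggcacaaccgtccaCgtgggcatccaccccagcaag
Atp6v0c, chr17:24164822-24164881, minus strand, exon 2: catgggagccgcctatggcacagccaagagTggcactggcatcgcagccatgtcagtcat
Atp6v0c-ps2, chr6:37806166-37806225, plus strand: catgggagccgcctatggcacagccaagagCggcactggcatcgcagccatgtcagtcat
Itpa, chr2:130675685-130675744, plus strand, exon 6: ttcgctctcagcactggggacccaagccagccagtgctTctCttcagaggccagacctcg
Itpa-ps1, chr2:94384688-94384747, minus strand: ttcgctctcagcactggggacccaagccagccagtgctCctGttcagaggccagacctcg
Glo1, chr17:30600093-30600152, minus strand, exon 3: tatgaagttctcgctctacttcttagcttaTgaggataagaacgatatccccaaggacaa
Gm13443, chr2:35340603-35340662, plus strand: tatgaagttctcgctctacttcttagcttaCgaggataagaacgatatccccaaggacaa
Counted from the 5′ end of each window, the gene and the copy differed by T39C for Rpl26, T31C for Atp6v0c, T39C and C42G for Itpa, and T31C for Glo1. Over the whole alignment, identity was 98.2% of 438 bases for Rpl26, 99.8% of 465 bases for Atp6v0c, 99.3% of 597 bases for Itpa and 99.5% of 555 bases for Glo1.

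Values are FPKM, fragments scaled for gene length and library size. Each library held 16.7 M to 29.7 M reads (M, mega), recovered as whole numbers from its FPKM values. Values for a gene with its copies are in CPM, recovered reads scaled to a library total of 1000000. A library set apart from its group can move a mean of 4, and the C57 libraries did so for rod genes. The summed level of 28 rod genes was 18504, 18493, 18734 and 21516 FPKM in the 4 BALBc libraries, and 9563, 8491, 23742 and 19215 FPKM in the 4 C57 libraries. C57 replicates 1 and 2 lay below all 4 BALBc libraries, while C57 replicate 3 lay above them. The same 2 libraries had fewer recovered reads than their FPKM scale implied, with ratios of 0.884 and 0.887, against 1.02 to 1.10 in the other 6 libraries. The summed level of 19 lens genes ran from 48.4 to 341 FPKM in BALBc and from 95.2 to 1475 FPKM in C57, with the groups overlapping. For 7 erythroid genes the sum was 56.4 to 264 FPKM in BALBc and 30.8 to 63.6 FPKM in C57, again overlapping. By Xist and the Y-linked gene Ddx3y, BALBc replicates 1 and 2 and C57 replicates 1 to 3 carried the male pattern, BALBc replicate 4 the female one, and BALBc replicate 3 and C57 replicate 4 held both kinds of transcript. The part of rod, lens, blood and sex differences in the gene results was not tested, apart from the values given beside them.

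**Figure D1:**
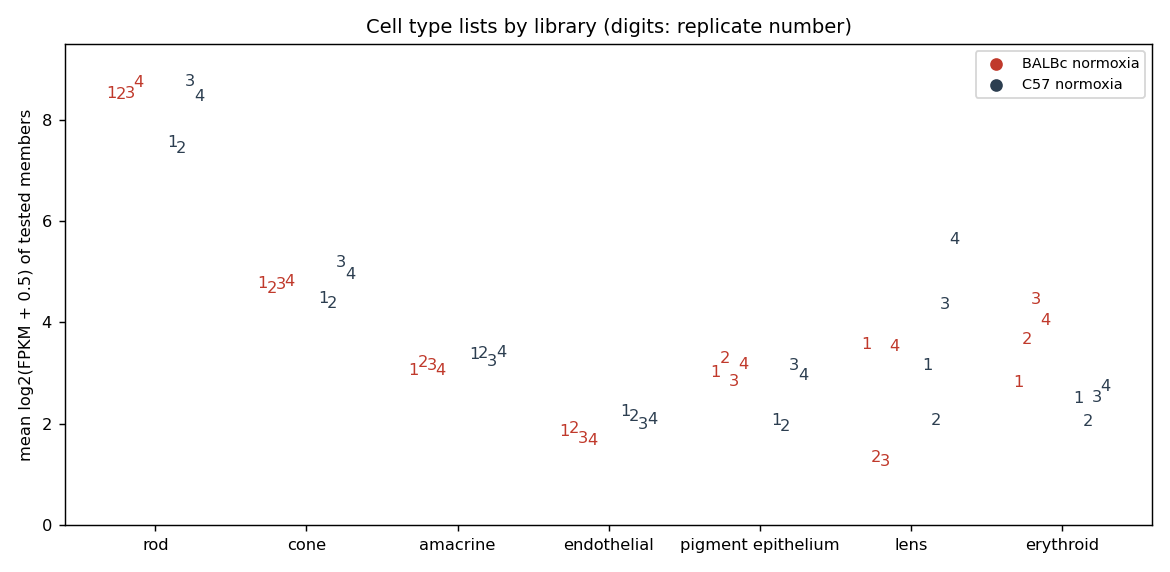
Mean log2(FPKM + 0.5) of the tested members of 7 cell type lists in each normoxia library, with BALBc left of C57 and digits giving the replicate number. C57 replicates 1 and 2 lie low for rods, at 7.56 and 7.43, against 8.50 to 8.73 in the 4 BALBc libraries.

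Of 14953 genes tested, 1358 differed between BALBc and C57 retinas in normoxia (9.08%; limma, Benjamini-Hochberg adjusted p under 0.05). In BALBc, 703 of them were higher (4.70%) and 655 were lower (4.38%). Among the 1358 genes the median size of the difference was 0.72 on the log2(FPKM + 0.5) scale, 467 differed more than 2-fold and 139 more than 4-fold. The 4 libraries of one strain lay wholly above or below those of the other for 1298 of these genes, and for 2695 of all tested genes (18.0%). Over all tested genes the median difference was 0.01. Without C57 replicates 1 and 2, 751 genes passed, 365 higher and 386 lower in BALBc. Leaving out other libraries can lower the count too, with 916 genes without BALBc replicate 3 alone. No other pair of libraries was left out, so the part of these 2 in the total was not tested.

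**Figure D2:**
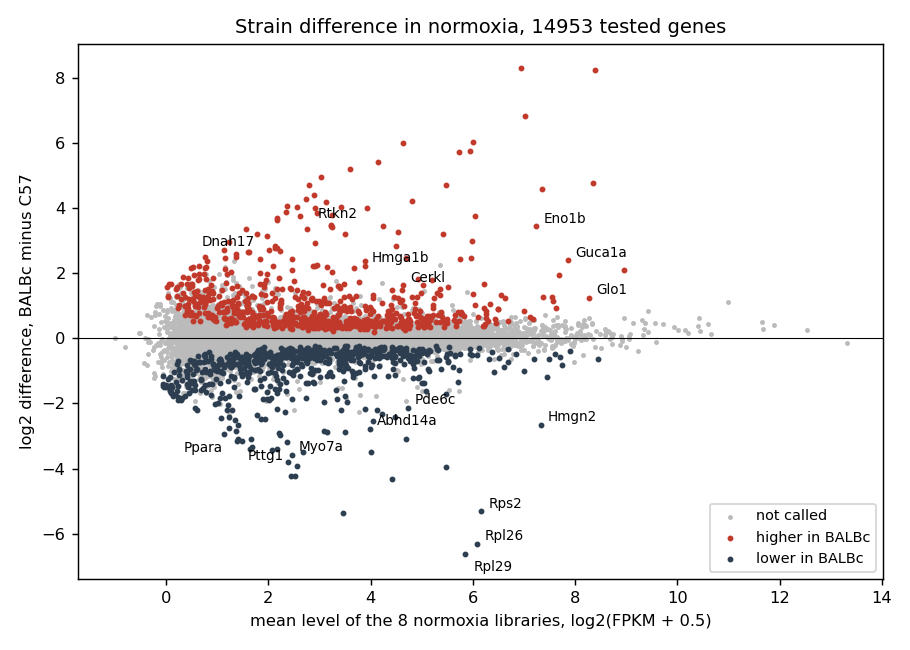
Difference of BALBc minus C57 in log2(FPKM + 0.5) for each of the 14953 tested genes, against the mean level of the 8 libraries on the log2 scale. The 703 genes that were higher in BALBc and the 655 that were lower are coloured, and the 2 lowest points are the ribosomal protein genes Rpl29 and Rpl26.

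Processed pseudogenes, which are copies of spliced transcripts, were among the genes that differed. Of 740 tested, 132 passed (17.8%), with 102 higher and 30 lower in BALBc, while 1047 of 12210 protein-coding genes passed (8.57%), with 498 higher and 549 lower. The 2 largest positive differences, chosen after their values were seen, were those of the processed pseudogenes Gm11702 (8.30) and Gm13394 (8.26). Gm13394 averaged 671 FPKM in BALBc and 1.69 FPKM in C57. A protein-coding gene was said to have a copy where another annotated gene elsewhere matched its transcript at 95% identity or more over at least 200 bases and at least 50% of the shorter transcript. Among tested protein-coding genes with a copy, 12.4% differed between the strains, against 8.22% of those without one. Of the 41 protein-coding genes that differed more than 4-fold, 23 had a copy, against 8.48% of all tested protein-coding genes.

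In BALBc, 46 protein-coding genes differed one way while at least 1 of their copies differed the other way. Reads of a gene and its copies were added to see what both held together. The median size of the difference was 1.40 (log2 ratio of CPM) for these genes alone and 0.46 for the sums. Some parents and their retrogenes, such as Eno1 and Eno1b, are both among the 46 and share the same sum. These genes were picked for a copy that differed the other way, which by itself brings the sum closer to 0, so the medians are a description. Whether reads of one place were counted at the other, or at neither, was not tested.

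Ribosomal proteins, the protein part of the ribosome, were chosen as a group after their values were seen. Of 81 tested, 1 was higher and 9 were lower in BALBc, against 4.70% and 4.38% of all genes, and the median difference was 0.09. Copies are the rule among them, held by 71 of the 81 tested and by 9 of these 10. Rpl29 had 0.266, 0.482, 0.621 and 1.38 FPKM in BALBc, against 96.8, 91.2, 144 and 122 FPKM in C57 (log2 difference -6.64, SE 0.26, limma adjusted p = 4.64e-11). Rpl26 had 1.35, 1.16, 1.71 and 0.538 FPKM in BALBc, against 111, 92.6, 184 and 148 FPKM in C57 (-6.32, SE 0.23, limma adjusted p = 2.50e-11). The strains did not overlap for either gene. Rps2 (-5.31), Rps18 (-3.94), Rpl21 (-2.89), Rpl35a (-2.88), Rpl30 (-2.55), Rplp0 (-1.19) and Rpl3l (-1.09) were also lower, and Rpl3l is the one without a copy. Rpl26 averaged 1.67 CPM in BALBc and 195 in C57, and its copy Gm15772 averaged 269 in BALBc and 10.4 in C57. Rpl26 and its copies together came to 272 ± 31.6 in BALBc and 207 ± 40.1 in C57 (SD, n = 4), with overlapping ranges. Rpl30 and its copies likewise summed to 125 ± 7.95 in BALBc and 134 ± 25.3 in C57, although Rpl30 alone had 13.0 in BALBc and 84.7 in C57.

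Of the 8 lower ribosomal genes that have copies, 2 gave sums that overlapped between the strains and 6 gave sums that were lower in BALBc without overlap. Reads left uncounted would be missing from these sums, which was not tested. Rps2 alone averaged 5.53 CPM in BALBc and 262 in C57, its copies Rps2-ps10 and Rps2-ps13 had 114 and 48.5 in BALBc and 8.57 and 14.5 in C57, and the family had 173 ± 21.5 in BALBc and 300 ± 40.3 in C57. Rps18 and its copies came to 69.2 ± 9.58 in BALBc and 209 ± 30.9 in C57, and Rpl29 and its copies to 41.7 ± 5.70 in BALBc and 148 ± 15.7 in C57. The sums were 49.6 ± 9.34 in BALBc and 128 ± 30.2 in C57 for Rpl21, 20.4 ± 2.51 in BALBc and 72.2 ± 12.6 in C57 for Rpl35a, and 299 ± 28.0 in BALBc and 413 ± 44.7 in C57 for Rplp0. Rps23 was the ribosomal gene that was higher in BALBc, at 255, 257, 224 and 318 FPKM, against 90.7, 85.0, 144 and 121 FPKM in C57 (1.28, SE 0.19, limma adjusted p = 0.000408), and its copies added little, since the family held 325 CPM in BALBc and 141 in C57.

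Enzymes and regulators outside the ribosome showed the same arrangement of a lower gene and a higher copy. Atp6v0c, the proteolipid of the proton-pumping V-ATPase, had 5.04, 5.32, 5.31 and 7.17 FPKM in BALBc, against 27.4, 26.5, 34.7 and 33.2 FPKM in C57 (-2.32, SE 0.11, limma adjusted p = 6.26e-10). Its copy Atp6v0c-ps2 had 116 CPM in BALBc and 0.84 in C57, and gene and copies together had 135 ± 4.95 in BALBc and 106 ± 2.97 in C57. Here the sum was higher in all 4 BALBc libraries, the opposite of the gene alone. Itpa, which removes inosine triphosphate from the nucleotide pool, averaged 9.17 CPM in BALBc and 47.5 in C57, and Itpa with Itpa-ps1 came to 39.7 ± 5.39 in BALBc and 49.0 ± 6.90 in C57, with overlapping libraries.

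Enolase, the glycolytic enzyme that forms phosphoenolpyruvate, is split over several places. The retrogene Eno1b had 282, 284, 250 and 291 FPKM in BALBc, against 28.6, 18.7, 29.2 and 25.1 FPKM in C57 (3.44, SE 0.22, limma adjusted p = 2.70e-08). Eno1 itself had 263, 276, 258 and 281 FPKM in BALBc, against 452, 333, 487 and 436 FPKM in C57 (-0.65, SE 0.13, limma adjusted p = 0.00461). Neither gene overlapped between the strains, yet Eno1, Eno1b and 2 further copies together held 2317 ± 84.3 CPM in BALBc and 2418 ± 315 in C57, and these sums overlapped. Hmga1b and Hmga1, which encode a chromatin protein that binds AT-rich DNA, also split into a higher retrogene and a lower parent, with Hmga1b at 37.7 CPM in BALBc and 7.94 in C57 and Hmga1 at 34.4 in BALBc and 86.0 in C57. Unlike those of enolase, their sums did not overlap, at 72.1 ± 5.26 in BALBc and 93.9 ± 4.98 in C57. Eif3j2 and Eif3j1, for a subunit of translation initiation factor 3, and Tpm3-rs7 and Tpm3, for a tropomyosin, followed this split too. Their sums were also lower in BALBc without overlap, at 38.0 ± 4.25 CPM in BALBc and 45.5 ± 1.11 in C57 for Eif3j1 with Eif3j2, and 51.3 ± 2.91 in BALBc and 97.3 ± 27.2 in C57 for Tpm3 with Tpm3-rs7. Hmgn2 (-2.65), a nucleosome-binding protein, and Tdg (-2.20), a thymine DNA glycosylase, were lower alone and also with their copies, Hmgn2 at 358 CPM in BALBc and 1072 CPM in C57, and Tdg at 40.8 CPM in BALBc and 98.6 CPM in C57.

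**Figure D3:**
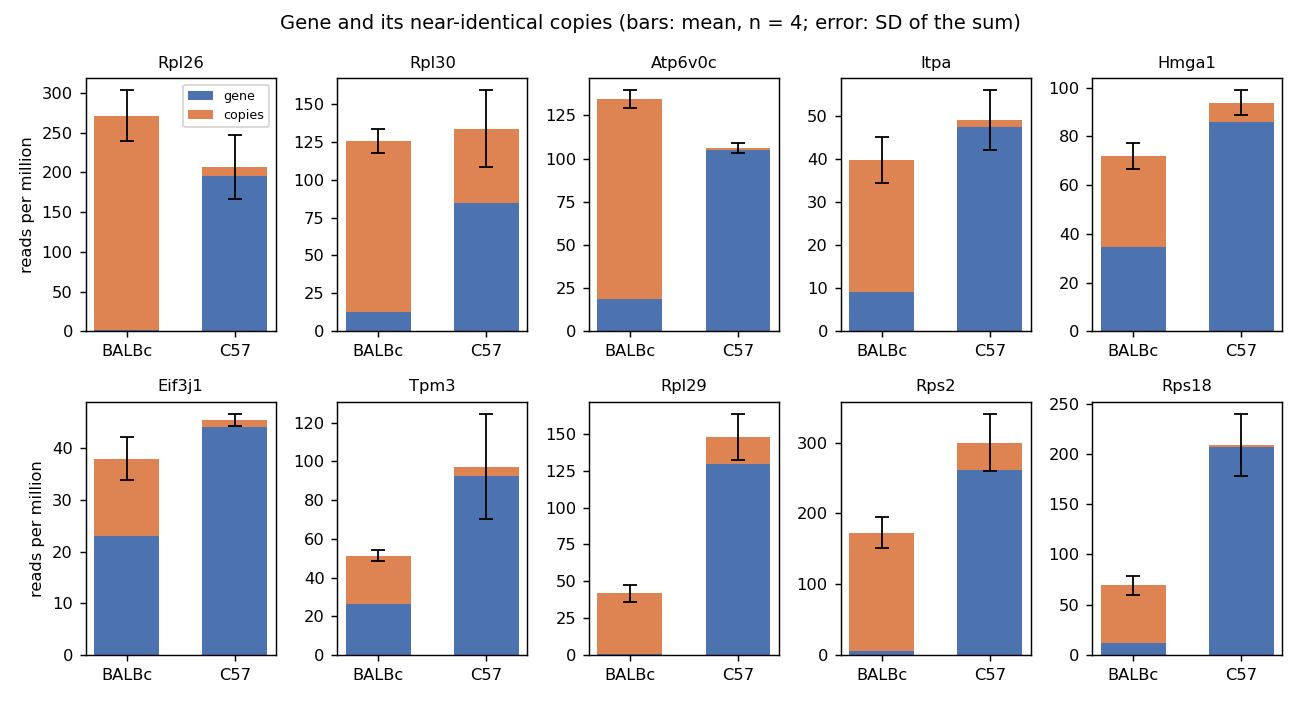
CPM of a gene (blue) and of its near-identical copies (orange) in BALBc and C57, as means of 4 libraries, with the SD of the sum. In Rpl26, Rpl30 and Itpa the sums of the strains overlap while the gene alone does not, and in Rpl29, Rps2 and Rps18 the sum is also lower in BALBc.

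Glo1, glyoxalase 1, which detoxifies methylglyoxal, was higher in BALBc, and so was its copy. Glo1 had 436, 420, 450 and 412 FPKM in BALBc, against 165, 147, 229 and 194 FPKM in C57 (1.24, SE 0.14, limma adjusted p = 2.08e-05). Gm13443 had 68.2 CPM in BALBc and 0.82 in C57, small beside the 5048 in BALBc and 2264 in C57 of Glo1 itself. A duplication that includes Glo1 is known in several inbred strains.

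Of the 1047 protein-coding genes that differed, 919 had no such copy. Rtkn2, rhotekin 2, had 12.4, 10.4, 12.7 and 11.8 FPKM in BALBc, against 0.643, 0.796, 0.708 and 0.618 FPKM in C57 (3.37, SE 0.13, limma adjusted p = 6.75e-11), which is 17.1 times the mean level. Dnah17, an axonemal dynein heavy chain, had 6.48, 5.11, 6.25 and 8.26 FPKM in BALBc, against 0.325, 0.343, 0.181 and 0.268 FPKM in C57 (3.16, SE 0.16, limma adjusted p = 9.83e-10). Sgsh, the lysosomal sulfamidase that degrades heparan sulfate, had 12.7, 10.7, 11.4 and 11.8 FPKM in BALBc, against 1.78, 1.75, 2.24 and 2.63 FPKM in C57 (2.23, SE 0.14, limma adjusted p = 2.60e-08). In all 3 genes the strains lay far apart relative to the spread of their libraries. Genes named for the largest differences were picked among those whose strains did not overlap. Dnah17 overlaps Pgs1 and Sgsh overlaps Card14, and without a known strand setting reads of overlapping genes cannot be told apart. Armh4 (2.44), Spata1 (1.74), Igsf9 (1.65), an immunoglobulin superfamily protein of dendrites and synapses, and Wdfy1 (1.62), an endosomal protein, were higher in BALBc by these log2 differences, each past the threshold.

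Ppara, the nuclear receptor that drives fatty acid oxidation genes, was the lowest of the lipid genes in BALBc relative to C57. It lies at chr15:85734983-85802819 on the plus strand and had 0.0260, 0.0472, 0.0841 and 0.0506 FPKM in BALBc, against 3.32, 3.50, 5.73 and 5.61 FPKM in C57 (-3.15, SE 0.21, limma adjusted p = 4.95e-08). These values stood for 2, 4, 6 and 4 recovered reads in BALBc, against 296, 252, 594 and 483 in C57. The ratio of mean levels, 87.3 in favour of C57, is larger than the fitted difference because 0.5 is added before the log, and it rests on few BALBc reads. Pttg1, securin, which holds sister chromatids together until anaphase, had 0.199, 0.385, 0.108 and 0 FPKM in BALBc, against 4.66, 3.94, 6.11 and 5.88 FPKM in C57 (-3.08, SE 0.20, limma adjusted p = 2.11e-08). Myo7a, the unconventional myosin that is mutated in Usher syndrome and is found in photoreceptors and pigment epithelium, had 1.72, 1.30, 1.62 and 1.42 FPKM in BALBc, against 10.6, 11.4, 17.5 and 18.1 FPKM in C57 (-2.85, SE 0.17, limma adjusted p = 1.42e-08). Abhd14a, an alpha/beta hydrolase domain protein whose gene overlaps Abhd14b, had 3.59, 3.35, 3.31 and 3.66 FPKM in BALBc, against 32.2, 29.2, 23.9 and 23.3 FPKM in C57 (-2.79, SE 0.13, limma adjusted p = 4.94e-10). All 4 genes were lower in every BALBc library than in any C57 library, which the rule for naming the largest differences required. Ccl27a (-3.92), a chemokine gene that overlaps Il11ra1 and has copies, was also lower, with 0.66 CPM for gene and copies in BALBc and 26.4 in C57.

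**Figure D4:**
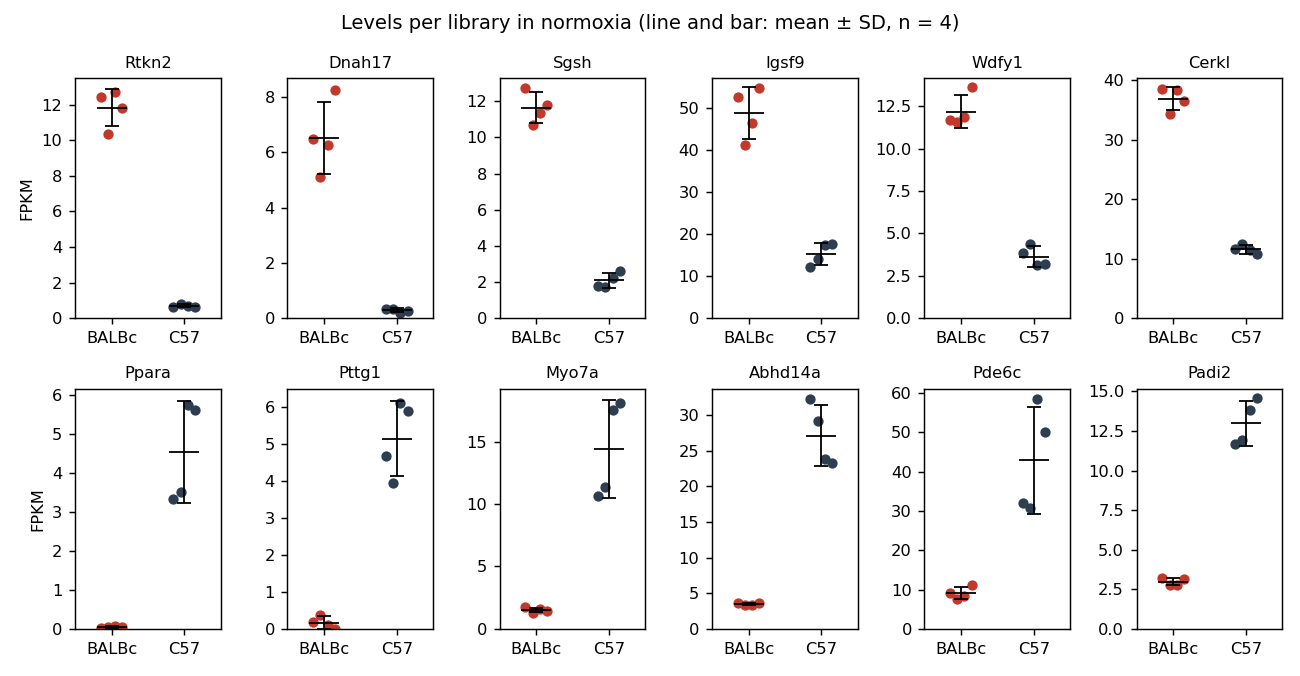
FPKM of 12 genes in each library, BALBc left of C57, with the mean and SD of 4 libraries on linear axes that start at 0. The 6 upper genes are higher and the 6 lower genes are lower in BALBc, and no library of one strain reaches the range of the other. Genes named for the largest differences were picked for this lack of overlap.

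Rod genes encode the light-sensing cascade and outer segment. All 28 were tested, 2 were higher in BALBc (against 4.70% of all genes) and none was lower, with a median of 0.44 over the list beside 0.01 over all genes. Without C57 replicates 1 and 2 that median was -0.13. Guca1a, the calcium-sensing activator of retinal guanylate cyclase, had 323, 359, 341 and 506 FPKM in BALBc, against 54.7, 36.4, 135 and 93.9 FPKM in C57 (2.40, SE 0.46, limma adjusted p = 0.00318). The strains did not overlap for Guca1a, and without those 2 libraries the difference was 1.74 (adjusted p = 0.0739). Grk1, a photoreceptor kinase that ends the light response, differed by 0.61 (SE 0.17, limma adjusted p = 0.0307), and by 0.28 without them (adjusted p = 0.337). Gnat1, rod transducin, had 1.10 (adjusted p = 0.247) and -0.02 without them. Kcnj14, a potassium channel gene outside the list, had 1.66 (adjusted p = 0.0378) and 0.64 without them (adjusted p = 0.410), and with its copy it held 277 CPM in BALBc and 110 CPM in C57.

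Of 11 tested cone genes 1 was higher and 1 lower in BALBc, against 4.70% and 4.38% of all genes. Pde6c, the catalytic subunit of the cone phosphodiesterase, had 9.25, 7.62, 8.43 and 11.2 FPKM in BALBc, against 32.2, 30.8, 58.5 and 50.1 FPKM in C57 (-2.13, SE 0.24, limma adjusted p = 1.84e-05). Opn1sw, the short-wavelength opsin, had 152, 180, 160 and 159 FPKM in BALBc, against 91.9, 75.8, 113 and 82.8 FPKM in C57 (0.85, SE 0.15, limma adjusted p = 0.00146). Neither overlapped between the strains, and the other 9 tested cone genes did not pass the test. Cerkl, a ceramide kinase-like gene mutated in retinal dystrophy, had 38.6, 34.3, 38.3 and 36.5 FPKM in BALBc, against 11.6, 12.4, 11.4 and 10.8 FPKM in C57 (1.63, SE 0.13, limma adjusted p = 3.85e-07). Its neighbour Itga4, an integrin alpha chain, overlaps it and was also higher in BALBc (1.47, SE 0.19, limma adjusted p = 8.25e-05). Cerkl overlaps Neurod1 and other gene models as well, and without a known strand setting their reads cannot be told apart.

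Among inner retinal lists, 4 of 17 amacrine genes were lower in BALBc (against 4.38% of all genes) and none was higher, with a median of -0.14. They were Npy (-1.20), neuropeptide Y, Slc17a8 (-0.79), a vesicular glutamate transporter, Pcsk6 (-0.67), a proprotein convertase, and Slc6a9 (-0.50), the glycine transporter of glycinergic cells. Npy had 16.7, 25.9, 16.6 and 12.9 FPKM in BALBc, against 50.8, 55.7, 28.9 and 33.8 FPKM in C57, without overlap. Its C57 values lay in the same pairs of libraries as those of the rod genes. Npy and Pcsk6 each lost the call in at least 1 other setting. The amacrine median was -0.14 without C57 replicates 1 and 2 too. Of 18 bipolar genes 2 were higher in BALBc (against 4.70%), the homeobox gene Sebox (0.70) and the G protein subunit gene Gng13 (0.58), with a median of -0.01, and of 0.13 without C57 replicates 1 and 2. Of 16 ganglion cell genes 1 was lower (against 4.38%), the growth cone protein gene Gap43 (-0.68). Gabra2, a GABA-A receptor subunit whose expression is reduced by a known variant in C57BL/6J, had 4.70, 6.17, 6.95 and 6.64 FPKM in BALBc, against 2.36, 3.16, 2.01 and 2.13 FPKM in C57, without overlap (1.18, SE 0.24, limma adjusted p = 0.00456).

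Müller glia, the radial support cells of the retina, had 1 gene higher and 2 lower among 18 tested, against 4.70% and 4.38% of all genes. Clu, clusterin, a secreted chaperone, was higher (1.05, and 0.56 without C57 replicates 1 and 2, limma adjusted p = 0.329), while Crym (-1.61), which binds thyroid hormone, and Vim (-0.61), an intermediate filament, were lower. Crym had 16.8, 16.3, 15.4 and 14.2 FPKM in BALBc, against 69.6, 62, 34.7 and 37.4 FPKM in C57. The strains did not overlap for Crym, and its C57 values lay in 2 pairs, the same pairs that the rod genes showed. Gfap, the filament of astrocytes and of reactive Müller glia, had 2.51, 4.94, 3.29 and 9.58 FPKM in BALBc, against 6.04, 4.63, 5.77 and 5.17 FPKM in C57, and did not pass the test (adjusted p = 0.745). Microglia, the resident macrophages, had 2 of 12 genes higher and 1 lower in BALBc, against 4.70% and 4.38% of all genes. The list median was 0.10. P2ry12 (0.66) and Ctss (0.53) were higher, and each lost the call in at least 1 fit that left out 1 library. The lower one, Fcrls (-1.83), an Fc receptor-like gene, had 0.513, 0.291, 0.599 and 0.374 FPKM in BALBc, against 3.81, 4.03, 1.59 and 2.54 FPKM in C57, without overlap.

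Endothelial genes, which mark the lining of vessels, had a median of -0.43, with 14 of 17 tested members below 0 and 2 past the test, both lower in BALBc (against 4.38% of all genes). Of all tested genes, 51.9% lay above 0. Without C57 replicates 1 and 2 the median was -0.27, Mfsd2a was at -0.43 (limma adjusted p = 0.306) and Esam at -0.55 (adjusted p = 0.301). In bulk tissue fewer cells of a type and less RNA per cell cannot be told apart. Mfsd2a, the lipid transporter of the blood-retina barrier, had 1.42, 1.59, 1.96 and 1.66 FPKM in BALBc, against 4.53, 3.12, 2.44 and 2.34 FPKM in C57, without overlap (-0.71, SE 0.19, limma adjusted p = 0.0329). Esam, an endothelial adhesion molecule, had a difference of -0.72 (SE 0.22, limma adjusted p = 0.0490) and passed in 7 of 22 other settings. Cldn5, the tight junction claudin, had 12.3, 14.7, 12.6 and 10.6 FPKM in BALBc, against 30.4, 20.8, 19.7 and 19.7 FPKM in C57, and missed the threshold (-0.81, SE 0.26, adjusted p = 0.0625). The summed level of all 22 endothelial genes was 111 to 123 FPKM in BALBc and 135 to 145 FPKM in C57, without overlap. None of 8 mural genes passed, with a median of -0.35 and 7 of the 8 below 0. Of 30 angiogenic factors 2 were higher in BALBc and 1 was lower, against 4.70% and 4.38% of all genes, with a median of -0.02. The higher ones were the Notch ligand gene Jag1 (0.53) and the axon guidance gene Sema3f (0.52, and 0.18 without C57 replicates 1 and 2). The lower one was the apelin receptor gene Aplnr (-0.95). Vegfa, the main vascular growth factor of the retina, had 26.3, 24.2, 26.7 and 29.8 FPKM in BALBc, against 37.8, 45.6, 22.7 and 24.8 FPKM in C57, with overlap (-0.23, SE 0.29, adjusted p = 0.689).

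Single lipid genes differed, while the medians of 6 lists of lipid genes lay between -0.07 and 0.04. Of 33 oxidation genes tested 2 were higher and 3 lower in BALBc, against 4.70% and 4.38% of all genes. Besides Ppara, Acaa1a (-1.13), a peroxisomal thiolase, and Eci2 (-0.46), an enoyl-CoA isomerase, were lower. Acadm (0.38), the medium-chain acyl-CoA dehydrogenase, and Tmlhe (0.42), of carnitine synthesis, were higher. Acaa1a with its copy held 60.03 CPM in BALBc and 139 CPM in C57, and Acadm was at 0.23 without C57 replicates 1 and 2 (limma adjusted p = 0.333). In fatty acid synthesis 2 of 29 tested genes were higher and 1 was lower, against the same shares of all genes. Acacb (1.0), an acetyl-CoA carboxylase, and Scd1 (0.77), a desaturase, were higher. Elovl2 (-0.69), which elongates polyunsaturated fatty acids towards the retinal lipid DHA, was lower. Elovl2 had 25.2, 21.1, 23.4 and 20.2 FPKM in BALBc, against 33.1, 33.5, 40.1 and 39.2 FPKM in C57, without overlap. Of 14 genes of fatty acid binding and uptake 1 was higher and 2 were lower, against the same shares. In lipid uptake Vldlr (0.59), the very low density lipoprotein receptor, was higher (0.33 without C57 replicates 1 and 2, limma adjusted p = 0.178). Lpl (-1.05), lipoprotein lipase, was lower. Fabp5 (-1.31), a fatty acid binding protein, was lower too, and with its copies it held 32.6 CPM in BALBc and 57 in C57. None of 29 cholesterol genes passed the test, and the median was -0.06. Of these 29 genes, 4 had an unadjusted p under 0.05, against 3419 of all 14953 tested genes.

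Genes of energy metabolism differed singly. Of 32 glycolytic genes 5 passed the test, against 9.08% of all genes. The 2 that were higher in BALBc were Pfkfb2 (0.66), which sets fructose 2,6-bisphosphate, and Eno2 (0.55), neuronal enolase, and Eno2 was at 0.29 without C57 replicates 1 and 2 (limma adjusted p = 0.323). The 3 lower ones were Pdk1 (-1.04), the kinase that restrains pyruvate dehydrogenase, Eno1, described above with its copies, and Gpi1 (-0.47), glucose-6-phosphate isomerase, which with its copy held 322 CPM in BALBc and 473 CPM in C57. Pdk1 had 2.89, 3.15, 2.92 and 2.91 FPKM in BALBc, against 6.53, 6.32, 6.26 and 7.45 FPKM in C57, without overlap (SE 0.15, limma adjusted p = 0.000215). It was the 1 of 21 targets of hypoxia-inducible factor that passed, against 9.08% of all genes. Of 75 nuclear genes of oxidative phosphorylation 3 were lower (against 4.38%), with a median of 0.02, and of -0.18 without C57 replicates 1 and 2. They included the complex I subunit gene Ndufb10 (-0.51) and the ATP synthase gene Atp5g1 (-0.56), whose sum with its copy was 104 CPM in BALBc and 103 in C57. Of 15 mitochondrially encoded genes 1 was lower (against 4.38%), mt-Nd3 (-3.09). With its nuclear copy Gm28438, mt-Nd3 had 26.7 ± 5.93 CPM in BALBc and 19.5 ± 3.02 in C57. Idh3b (-0.36) of the TCA cycle and Txnrd1 (-0.75), thioredoxin reductase, were lower as well.

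Antigen presentation genes of class I had 3 of 12 tested lower in BALBc (against 4.38% of all genes), none higher, and a median of -0.22. Of these 12 genes, 11 lay below 0, while 51.9% of all tested genes lay above 0. Without C57 replicates 1 and 2 the class I median was -0.34. H2-K2 had 0.0475, 0.216, 0 and 0 FPKM in BALBc, against 5.29, 7.41, 3.92 and 4.63 FPKM in C57, without overlap (-3.34, SE 0.19, limma adjusted p = 5.83e-09). H2-D1 (-1.08) and H2-T24 (-1.85) were also lower. These genes are among the most variable between inbred strains, which carry different H2 haplotypes, and the reads were aligned to a C57BL/6J assembly, so how well BALBc alleles were counted was not tested. H2-Ab1, of class II, was higher in BALBc (0.98), at 1.37, 1.44, 1.22 and 1.84 FPKM, against 0.919, 0.358, 0.385 and 0.381 FPKM in C57, without overlap. None of 13 interferon-stimulated genes and none of 6 complement genes passed, and 0 and 1 of them had an unadjusted p under 0.05. Of all 14953 tested genes, 3419 had an unadjusted p under 0.05.

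Pigment genes did not pass the test. Tyr had 1.29, 1.92, 1.21 and 1.56 FPKM in BALBc, against 0.647, 0.726, 2.55 and 2.38 FPKM in C57 (0.08, SE 0.39, adjusted p = 0.937), and the strains overlapped. None of 11 melanin genes passed, with 1 at an unadjusted p under 0.05, against 3419 of all 14953 tested genes. Rpe65, the isomerase of the visual cycle in the pigment epithelium, had 22.2, 33.2, 22.8 and 30.3 FPKM in BALBc, against 4.29, 4.29, 14.5 and 13.6 FPKM in C57, and missed the threshold (1.71, SE 0.57, adjusted p = 0.0751). Its C57 values lay in the same pairs as those of the rod genes. Erythroid genes Hbb-bt (1.48) and Hba-a2 (1.40) were higher in BALBc, beside the summed erythroid level given above, and the strains overlapped for Hbb-bt. Hba-a2 with its copy Hba-a1 had 14.5 to 71.6 CPM in BALBc and 11.6 to 15.9 CPM in C57, which overlapped. None of 18 lens genes passed, and none had an unadjusted p under 0.05, against 3419 of all 14953 tested genes. All 18 lay below 0, while 51.9% of all tested genes lay above 0. The lens median was -1.51, and -2.81 without C57 replicates 1 and 2.

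The positions of called genes were also counted along the chromosomes. Counting called genes whose starts lay within 1000000 bases of the next, 148 runs of at least 3 held 789 of the 1358 genes. A run starts and ends with a called gene by this rule, so its share is not set against the 9.08% of all genes, and how many runs the tested genes alone would give was not examined. The run with the most called genes, at chr17:22846697-28080639, held 21 of 138 tested genes (15.2%), 5 higher and 16 lower in BALBc, among them Atp6v0c, Rps2, Ndufb10, Gng13 and Hmga1. At chr4:135963727-141815976, 18 of 75 tested genes differed (24%), 2 higher and 16 lower. This run held Padi2 (-1.95), a peptidylarginine deiminase, Ephb2 (-0.46), an ephrin receptor, Casp9 (-0.48), the initiator caspase of the mitochondrial pathway, and Aldh4a1 (-0.66), of proline breakdown. Padi2 had 3.19, 2.78, 2.80 and 3.15 FPKM in BALBc, against 11.7, 11.9, 13.8 and 14.5 FPKM in C57, without overlap (SE 0.11, limma adjusted p = 3.87e-09). The share of tested genes that differed ran from 6.32% on chromosome 10 to 11.8% on chromosome 13.

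Hyperoxia libraries of the same strains, which were not used for the normoxia contrast apart from the shared filter and estimate of spread, gave the same direction for 1307 of the 1358 genes (96.2%), against 71.0% of all tested genes. In hyperoxia 977 of the 1358 genes (71.9%) differed past the threshold in the same direction and 0 in the opposite one, where 22.6% of all tested genes passed. With each oxygen condition fitted on its own 8 libraries, 781 of 1441 genes (54.2%) passed again and 0 were opposite, and with voom on recovered reads, added after seeing the data, 1037 of 1460 passed again and 4 were opposite. Ppara averaged 0.0379 FPKM in BALBc and 4.71 FPKM in C57 in hyperoxia (-3.23), and Rtkn2 averaged 11.5 FPKM in BALBc and 0.516 FPKM in C57 (3.57). Guca1a did not pass there (1.28, adjusted p = 0.0579), nor did Hba-a2 (-1.12, adjusted p = 0.0617). The strain difference itself was tested between the oxygen conditions, and 0 of 14953 genes passed (0.00%; limma), with 1430 at an unadjusted p under 0.05. Of these 1430 genes, 183 were among the 1358, whose normoxia values enter both tests. With voom 0 passed as well, with 1462 at an unadjusted p under 0.05. A lack of calls does not show that the strain difference was the same in both conditions.

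**Figure D5:**
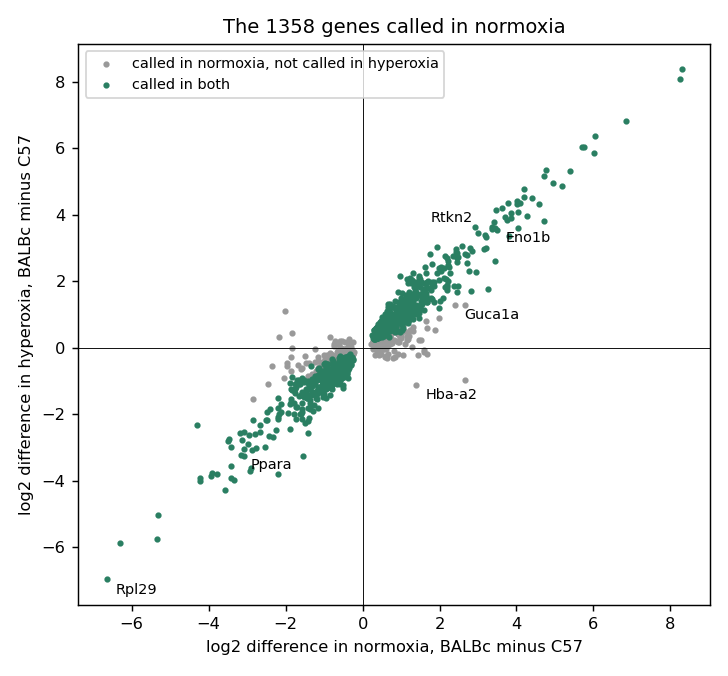
Log2 difference of BALBc minus C57 in hyperoxia against that in normoxia, for the 1358 genes that passed in normoxia. Genes that also passed in hyperoxia are green (977), and 1307 of the 1358 points lie on the same side of 0 in both conditions.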

How the data were processed

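RNA sequencing of whole retina was deposited as 1 table of 54532 genes in 16 libraries, which the authors gave as FPKM. Per the labels' protocols, the steps were TRIzol extraction of total RNA and library preparation with NEBNext Ultra II. The submitters' processing notes name HISAT2 2.0.5, featureCounts 1.5.0-p3 and GRCm38 (mm10). The strand setting and the library size behind FPKM are not given in the sources used here. Identifiers of 54495 genes matched GENCODE release 21, and 27 symbols turned into dates were restored.

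Genes that reached 1 FPKM in 4 or more libraries were analysed as log2(FPKM + 0.5) in limma 3.58.1 (R 4.3.3), with 4 group means over all 16 libraries, a mean-variance trend and p-values adjusted by Benjamini-Hochberg over all 14953 genes, with a threshold of 0.05. Adding 0.5 makes differences of low genes smaller. Whole reads were recovered from the FPKM steps, with 97.1% to 97.5% of values up to 1000 reads whole within 0.01. Transcripts were compared with BLAST 2.17.0. The code was tested on simulated data.

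Members, gene lists and tests were chosen with earlier results of these data known. Named were the 12 protein-coding genes with the largest difference each way (mean of at least 2 FPKM, ordinary symbols, strains not overlapping), up to 3 called members of each list or the 2 most abundant where none was called, members of runs, and a few genes in any case. Not every gene so named is described, and some results are not reported here. Genes outside it that are described are Acadm, Cldn5, Gpi1, Wdfy1, Gm13394, the ribosomal proteins and copies given beside their genes. Alternatives were other pseudocounts, filters, scalings, voom, a sex covariate, a rod covariate, a replicate block and left-out libraries.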

Additional observations from a re-analysis of the deposited data

Results flagged for a closer look

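In 15 of the 204 sets of 4 values examined, 1 library lay far from the other 3 of its strain, by Dixon's test at the 95% level. Chance flags about 1 in 20 sets, and the causes were not tested. BALBc replicate 4 stood apart with the highest FPKM for Kcnj14 (128), Ctss (17), Atp6v0c (7.17) and Wdfy1 (13.6). It also had the lowest FPKM for Ccl27a (0.0613) and Pcsk6 (2.25). BALBc replicate 2 stood apart with the highest FPKM for P2ry12 (4.57) and Pdk1 (3.15) and the lowest for Junb (8.01). BALBc replicate 3 had the lowest FPKM for Sgpl1 (3.02). C57 replicate 1 had the highest FPKM for Gap43 (66), H2-Ab1 (0.919), Acacb (0.46) and Cldn5 (30.4), and C57 replicate 3 the highest for Hba-a2 (2.39).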

How the results depend on the processing

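The count of 1358 genes stayed within 1.5 times under the other pseudocounts, filters, scalings, covariates and models tried, except without C57 replicates 1 and 2 together (751, of which 648 were among the 1358). A similar count need not hold the same genes. The rod covariate gave 1531, with 1024 among the 1358, and the sex covariate 1111, with 1046. Scaling to equal sums gave 1125, with 953 shared, no filter 1352, with 1026, and median ratio scaling 1387, with 1339. Leaving out 1 library at a time gave 903 (without C57 replicate 1) to 1398 (without C57 replicate 3), and 903 lies more than 1.5 times below 1358. Each of these fits has fewer libraries, and the cause was not tested. Same-numbered libraries did not deviate together, with correlations between -0.11 and 0.09, and a fit with replicate number as a block gave 1273. Of 95 named genes past the threshold, 60 passed under all of the other settings run for them, and 35 lost the call in at least 1, most often without C57 replicates 1 and 2 (32 genes). Of these, 26 lost it when 1 library was left out, namely Acadm, Aldh4a1, Atp5g1, Clu, Ctss, Eci2, Eno2, Ephb2, Esam, Gap43, Gng13, Grk1, Hba-a2, Hbb-bt, Junb, Kcnj14, Mfsd2a, Ndufb10, P2ry12, Pfkfb2, Scd1, Sema3f, Serpina3n, Sgpl1, Tmlhe and Vim, and the other 9 in other settings, namely Aplnr, Crym, Guca1a, Jag1, Npy, Pcsk6, Rpl3l, Sebox and Vldlr. Genes not past the threshold changed sign in some settings. With a rod covariate, Tyr was -0.60 and Vegfa 0.23. Without C57 replicates 1 and 2, Tyr was -0.59, Vegfa 0.17 and Gnat1 -0.018. With 1 library left out, Gfap ran from -0.57 to 0.011 and Tyr from -0.16 to 0.31. At these depths Ppara and H2-K2 rested on under 10 reads in each BALBc library.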

Other observations

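Genes of other groups moved singly as well. Among 11 immediate early genes, which neurons and glia switch on within minutes of a stimulus, 2 were higher and 1 was lower in BALBc. Of all tested genes 4.70% were higher and 4.38% lower, and the list median was -0.04. Ier2 (0.61) and Junb (0.40, and 0.25 without C57 replicates 1 and 2) were the higher ones and Nr4a1 (-0.60) the lower one. Of 35 genes of sphingolipid and phospholipid handling 1 was higher and 1 lower, against the same 4.70% and 4.38%. Cerkl was the higher one and Sgpl1 (-0.38, and -0.22 without C57 replicates 1 and 2), the sphingosine-1-phosphate lyase, the lower one. Among 13 genes of retinal stress and gliosis 1 was higher and 1 lower, against those same shares. Serpina3n (0.97), an acute phase protease inhibitor, was higher, and Vim was lower. None of 18 clock genes passed limma's adjusted threshold, and 6 had an unadjusted p under 0.05, against 3419 of all 14953 tested genes. The clock median was 0.20 in normoxia and -0.01 without C57 replicates 1 and 2. Nnt, which carries a known deletion in C57BL/6J, was below the expression filter, at 0.0621 to 0.107 FPKM in BALBc and 0.0632 to 0.189 FPKM in C57. A second entry of Nnt had 0 FPKM in every normoxia library of both strains. Whether reads were lost between these entries was not tested.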
